A study of Mus musculus with 64 samples.

Results

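Metallothioneins are small, cysteine-rich proteins that bind zinc and copper, and the mouse genome carries 4 of their genes side by side. The genes described here are Mt1, Mt2 and Mt3, chosen by their symbols and not by any measured value, and they are 3 of the 17199 genes listed over the 4 tables of the study. The tables of prefrontal cortex (15697 genes), hippocampus (15573 genes) and hypothalamus (16155 genes) listed all 3. The table of whole blood (8830 genes) listed Mt1 and Mt2 and did not list Mt3.

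Total RNA was sequenced from male BALB/c mice aged 28 weeks. One group had lived for 9 weeks under varied mild stressors in a schedule called Unpredictable Chronic Mild Stress (UCMS), which is used to model major depressive disorder, and the control group had stayed unstressed. Each brain region gave 8 control and 8 UCMS libraries and whole blood gave 7 control and 9 UCMS libraries, 64 libraries from 17 animals, and 15 of these animals gave both brain and blood. Control and UCMS mice were different animals, tissue was collected 14 to 16 h after the last stressor between ZT12.5 and ZT14.5 (hours from the start of the light phase), and no genotype, transgene or drug was named for either group.

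Mt1 and Mt2 are made in many cell types and are switched on by zinc and other metals through the transcription factor Mtf1, and by glucocorticoids, the hormones of the stress response. In brain they are best known from astrocytes, the glial cells that support neurons. Mt3 is the brain form of the family, first described as an inhibitor of neuronal growth, and it responds little to metals.

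The genes lie in a cluster on the plus strand of chromosome 8 of GRCm38 (GENCODE M21 annotation) that spans 43131 bases and runs from Mt4 through Mt3 and Mt2 to Mt1. Mt3 occupies chr8:94152607-94154146, Mt2 chr8:94172664-94173568 and Mt1 chr8:94179082-94180327. Mt2 ends 5513 bases before Mt1 begins, and 18517 bases separate Mt3 from Mt2. The longest-spanning transcript of each has 3 exons, with spliced lengths of 549 bases for Mt1, 511 for Mt2 and 536 for Mt3. No stretch of 50 bases in the transcripts of these 3 genes occurred in a transcript of any other annotated gene, family members included. An antisense gene, Gm45774, overlaps Mt2 on the minus strand. Whether the counting used strand is not given in the sources used here, so reads of Mt2 and Gm45774 cannot be told apart in these values.

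The promoters are shown because Mt1 and Mt2 varied together across libraries in every tissue, as described below. All 4 metallothioneins matched a RefSeq promoter on GRCm38.p6, and each line gives the 250 bases before the RefSeq start on the plus strand. Capitals mark the core of the metal response element, searched as TGCACNC and TGCGCNC on both strands. The reference is not the genome of the mice studied, which were BALB/c.
Mt1, chr8:94178839-94179088: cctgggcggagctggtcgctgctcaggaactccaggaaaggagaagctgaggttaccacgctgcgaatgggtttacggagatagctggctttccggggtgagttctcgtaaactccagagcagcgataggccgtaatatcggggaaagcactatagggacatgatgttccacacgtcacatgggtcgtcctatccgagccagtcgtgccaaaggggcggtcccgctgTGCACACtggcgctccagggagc
Mt2, chr8:94172368-94172617: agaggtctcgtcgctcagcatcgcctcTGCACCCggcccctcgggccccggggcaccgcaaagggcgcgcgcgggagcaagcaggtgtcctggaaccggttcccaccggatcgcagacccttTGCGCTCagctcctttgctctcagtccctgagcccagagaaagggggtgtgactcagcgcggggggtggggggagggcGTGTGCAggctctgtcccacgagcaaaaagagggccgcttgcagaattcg
Mt3, chr8:94152357-94152606: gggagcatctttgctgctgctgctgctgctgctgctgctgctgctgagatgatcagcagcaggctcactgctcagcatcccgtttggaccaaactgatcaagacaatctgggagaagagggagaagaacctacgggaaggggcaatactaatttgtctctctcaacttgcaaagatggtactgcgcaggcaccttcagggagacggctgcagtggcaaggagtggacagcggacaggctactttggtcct

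The stretch shown holds 1 match for Mt1, 3 for Mt2 and 0 for Mt3. The RefSeq entry also reaches 50 bases past the start, and matches lie there too. Annotated starts of Mt1 differ: GENCODE gives transcripts of this gene that begin at 94179082, 94179211 and 94179241, so 2 of them begin downstream of the RefSeq start at 94179089. Starts of Mt2 differ too, with GENCODE transcripts at 94172664 and 94172860 and the RefSeq start at 94172618. The Mt2 match past the RefSeq start, at 94172622 to 94172628, thus lies before both GENCODE starts. Bases just before the later GENCODE starts were not all within the window searched. The matches past the RefSeq start are shown with 5 bases on each side.
Mt1, 3 bases from the start: agctcTGCACTCcgccc
Mt1, 21 bases from the start: aaaagTGCGCTCggctc
Mt2, 5 bases from the start: gggtcGTGCGCAggccc
Mt3, 28 bases from the start: agcagTGCACACacacg
Over the whole window of 300 bases, Mt1 had 3 matches, Mt2 had 4 and Mt3 had 1. Of 32851 RefSeq promoters of that length, 25.7% held at least 1 match, 1.97% at least 3 and 0.517% at least 4. The palindromic glucocorticoid response element, searched as its full consensus on both strands, had 0 matches in the 3 windows and was present in 0.00913% of all promoters. A match here is a description of letters and not evidence of a site in use.

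Values were normalized log2 levels, and the libraries of each table largely shared 1 distribution of levels. With the values of each library sorted, 88.7% to 89.4% of ranks were equal within 0.002 in the brain regions and 72.4% in blood. The log2 base was inferred from the values and sequencing depth is unknown. The tables were normalized separately, so levels in different tissues are set side by side as a description. Listed markers set some tissues apart. The hypothalamus listed 8 of 8 hypothalamic neuron markers (Hcrt, Pmch, Avp, Oxt and others) and the other brain regions 2 of 8 each. Hippocampal neuron markers were listed as 6 of 6 in the hippocampus and 4 of 6 in each of the others. All 6 cortical neuron markers were listed in every brain region, so they did not set the prefrontal cortex apart. Astrocyte markers, 15 of 15, were also listed in every brain region. Blood listed 10 of 10 T cell and 10 of 10 platelet markers, and the hypothalamus listed 3 of 10 and 10 of 10. In 9 of 48 brain libraries, from 4 animals, the adult beta-globin gene Hbb-bs was above a level of 12, and metallothionein levels there lay within the range of the other libraries of the region, except Mt2 in the hippocampus, where the lowest of the hemoglobin-rich libraries was at 6.57 against 6.61 for the lowest of the others. In bulk tissue, fewer cells of a type and less RNA per cell cannot be told apart.

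All 3 genes were well above the low end of each brain table, and their order across regions was the same: lowest in the prefrontal cortex and higher in both other regions. Mt1 had a mean level of 7.97 ± 0.27 in the prefrontal cortex, 8.33 ± 0.29 in the hippocampus and 8.39 ± 0.27 in the hypothalamus (SD, n = 16 each). The prefrontal value was below the hippocampal one in 14 of 16 animals and below the hypothalamic one in 14 of 16. Hippocampus and hypothalamus differed by 0.05 ± 0.28 on average within an animal, less than the spread between animals. Mt2 had a mean level of 6.47 ± 0.31, 6.88 ± 0.27 and 6.83 ± 0.34 in the same order, with the prefrontal value lowest against each of the others in 15 of 16 animals. Mt3 had a mean level of 8.44 ± 0.15, 8.73 ± 0.13 and 8.69 ± 0.10, and its prefrontal level was below the hypothalamic one in 16 of 16 animals. Hippocampus and hypothalamus did not differ beyond the spread for Mt2 or Mt3 either, and the ranges of all 3 regions overlapped for each gene.

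Whole blood was the lowest tissue for Mt1, at 2.64 ± 1.71, and for Mt2, at 2.18 ± 1.70 (SD, n = 16), and each gene was lower in blood than in each brain region in 15 of 15 animals. The spread was also of another size there, but at levels near the low end of the blood table. Mt1 and Mt2 stood at percentiles 15.8 and 2.81 of level in blood, and between 89.9 and 97.4 in brain regions. The fold ranges of blood and brain are thus not of like levels, and the spread beside genes of similar level is given below. Mt1 ranged over 28.9-fold between blood libraries and over 2.01-fold to 2.40-fold between the libraries of a brain region. Mt2 ranged over 32.5-fold in blood and over 2.13-fold to 2.27-fold in brain. Mt3 was the steadiest of the 3 in brain, with ranges of 1.60-fold, 1.40-fold and 1.29-fold in prefrontal cortex, hippocampus and hypothalamus.

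**Figure D1:**
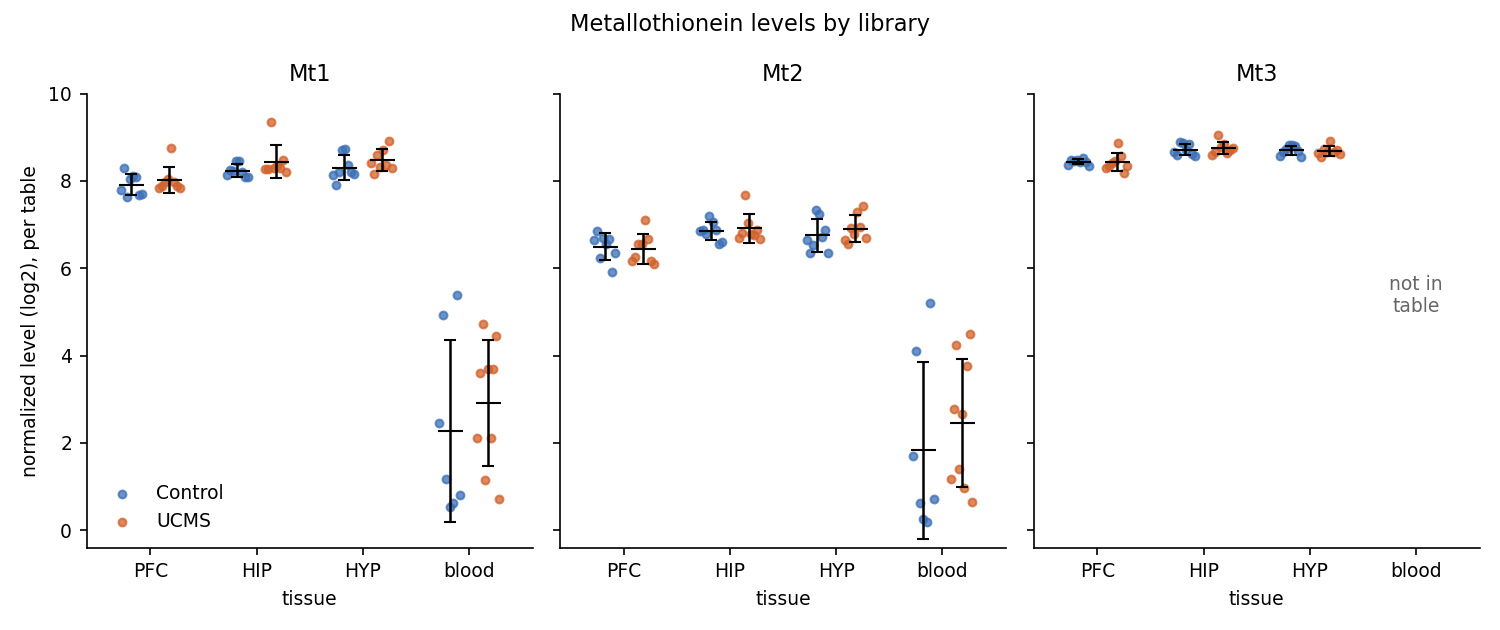
Normalized log2 level (y axis, per table) of Mt1, Mt2 and Mt3 in prefrontal cortex (PFC), hippocampus (HIP), hypothalamus (HYP) and whole blood, 1 point per library, blue for control and orange for UCMS, with the mean and SD in black. Brain points of a gene sit within 1.27 of each other in a region, while blood points of Mt1 run from 0.54 to 5.40, and tables were normalized separately.

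The study compared UCMS with control in each tissue, asking what chronic stress does to the transcriptome of brain and blood. None of the metallothioneins passed the threshold in any tissue, and control and UCMS libraries overlapped for each gene in each tissue. Levels of Mt1 averaged higher in UCMS in all 4 tissues, by 0.11 to 0.65 on the log2 scale, with intervals that include 0. Most animals gave all 4 tissues, so these are not 4 independent results. In limma, with Benjamini-Hochberg adjustment over all genes tested and a threshold of 0.05, 0 of 3 members were called in each brain region and 0 of 1 in blood. The background was 0 of 14127 genes (0%) in prefrontal cortex, 0 of 14015 (0%) for the hippocampus, 0 of 14539 (0%) for the hypothalamus and 0 of 7947 (0%) in blood. At an unadjusted p under 0.05, limma called 308 genes (2.18%), 414 (2.95%), 308 (2.12%) and 859 (10.8%) in the same order, and 0 metallothioneins were among them. No gene had groups free of overlap in the brain regions (0%), and 2 did in blood (0.0252%), neither a metallothionein.

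In the prefrontal cortex, Mt1 had a lowest, median and highest level of 7.64, 7.92 and 8.29 in control and 7.84, 7.94 and 8.75 in UCMS. The medians were level and a single UCMS library, replicate 5, stood above all others. The means were 7.92 ± 0.25 in control and 8.03 ± 0.30 in UCMS (SD, n = 8 each), a difference of 0.11 (limma SE 0.13, 95% interval -0.16 to 0.38, adjusted p = 0.987). Without UCMS replicate 5 the difference was 0.0058.

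Mt2 in the prefrontal cortex had a lowest, median and highest level of 5.91, 6.59 and 6.86 in control and 6.09, 6.40 and 7.10 in UCMS. The groups overlapped over most of their range, and 2 of 8 UCMS libraries were above the control median. The mean was 6.49 ± 0.31 in control and 6.45 ± 0.34 in UCMS, a difference of -0.04 (limma SE 0.15, 95% interval -0.36 to 0.28, adjusted p = 0.991).

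Mt3 in the prefrontal cortex had a lowest, median and highest level of 8.35, 8.45 and 8.53 in control and 8.19, 8.38 and 8.87 in UCMS. UCMS libraries lay both below and above the control range. The means were 8.44 ± 0.06 and 8.44 ± 0.21, so the spread and not the mean was the larger in UCMS, without a test of it, and the difference was -0.0049 (limma SE 0.077, 95% interval -0.17 to 0.16, adjusted p = 0.996).

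In the hippocampus, Mt1 had a lowest, median and highest level of 8.08, 8.21 and 8.46 in control and 8.21, 8.29 and 9.34 in UCMS. Of the UCMS libraries 7 of 8 were above the control median, and 1 of them, replicate 3, was far above the rest. The means were 8.24 ± 0.15 and 8.43 ± 0.38 (SD, n = 8 each), a difference of 0.20 (limma SE 0.13, 95% interval -0.08 to 0.48, adjusted p = 0.990; exact permutation p = 0.147, two-sided). This was the largest of the brain differences of Mt1, Mt2 and Mt3, and without UCMS replicate 3 it was 0.07. With the astrocyte score as a covariate it was 0.08, and replicate 3 also had the highest astrocyte score. With that covariate the Mt1 difference was 0.12 in prefrontal cortex (0.11 without it) and 0.16 in hypothalamus (0.17 without it).

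Mt2 in the hippocampus had a lowest, median and highest level of 6.57, 6.87 and 7.19 in control and 6.68, 6.80 and 7.67 in UCMS. Here too replicate 3 of UCMS was the highest library, while 3 of 8 UCMS libraries were above the control median. The difference of means was 0.06 (limma SE 0.13, adjusted p = 0.990), that of medians -0.07, and without UCMS replicate 3 the difference of means was -0.05. Mt3 had 8.56, 8.68 and 8.88 in control and 8.59, 8.73 and 9.05 in UCMS, again with UCMS replicate 3 highest. Its difference of means was 0.04 (limma SE 0.067, adjusted p = 0.990) and -0.0029 without that library.

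In the hypothalamus, Mt1 had a lowest, median and highest level of 7.90, 8.20 and 8.74 in control and 8.15, 8.39 and 8.91 in UCMS. Most UCMS libraries, 7 of 8, were above the control median, and the highest control libraries reached into the upper UCMS range. The means were 8.30 ± 0.29 and 8.47 ± 0.25 (SD, n = 8 each), a difference of 0.17 (limma SE 0.13, 95% interval -0.10 to 0.43, adjusted p = 0.99999; exact permutation p = 0.232, two-sided). Without UCMS replicate 7 it was 0.10.

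Mt2 in the hypothalamus had a lowest, median and highest level of 6.34, 6.68 and 7.33 in control and 6.56, 6.85 and 7.43 in UCMS. The UCMS range was shifted slightly upward within a wide overlap, with 6 of 8 UCMS libraries above the control median. The difference was 0.16 (limma SE 0.16, 95% interval -0.18 to 0.49, adjusted p = 0.99999), and it was 0.08 without UCMS replicate 7 and 0.24 without control replicate 4. Mt3 had 8.55, 8.71 and 8.81 in control and 8.54, 8.66 and 8.91 in UCMS, a difference of -0.02 (limma SE 0.054, 95% interval -0.14 to 0.09, adjusted p = 0.99999). That interval, the narrowest of the 10, runs from 0.909-fold to 1.07-fold.

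**Figure D2:**
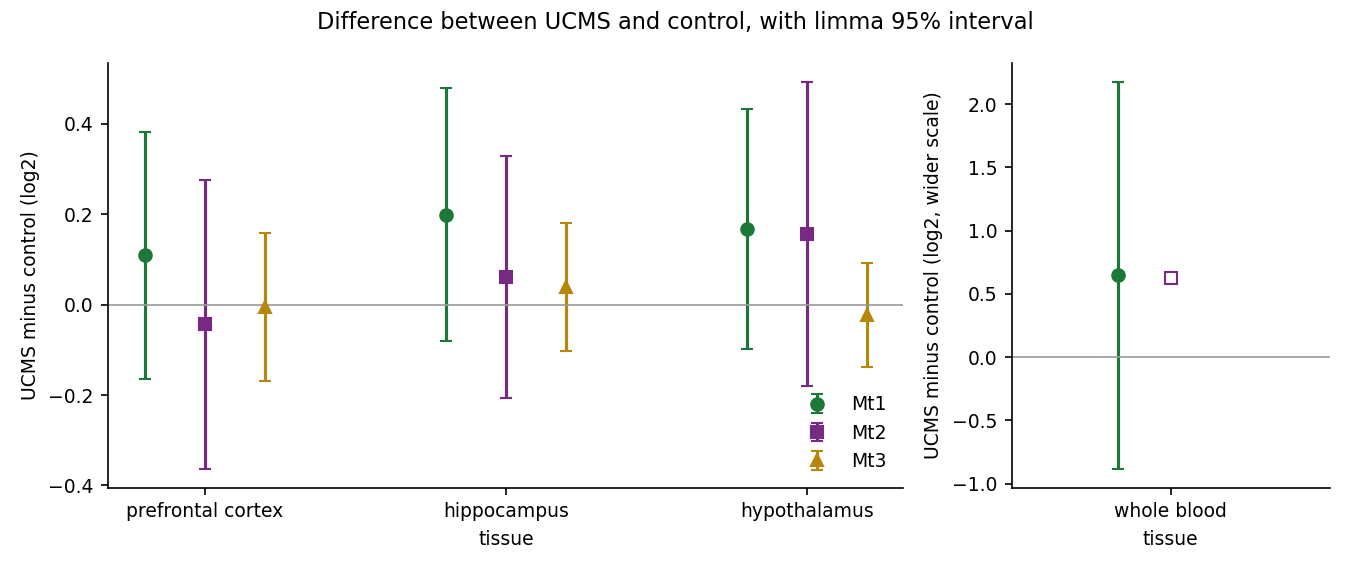
Difference between UCMS and control in mean log2 level (y axis) of Mt1 (circles), Mt2 (squares) and Mt3 (triangles) in each tissue (x axis), with the limma 95% interval. Each interval includes 0, blood has its own wider scale, and the open square for Mt2 in blood is the difference of means with no interval, as that gene was below the filter on low values.

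In whole blood, libraries fell across a wide range of levels in both groups. Mt1 in the 7 control libraries was at 2.46, 4.92, 1.17, 0.54, 0.63, 5.40 and 0.81 in replicates 1 to 7, and in the 9 UCMS libraries at 2.12, 3.61, 4.73, 1.15, 3.70, 2.11, 3.69, 4.46 and 0.72 in replicates 1 to 9. The 2 highest and the 2 lowest libraries of all were controls. Above a level of 3 were 2 of 7 control and 5 of 9 UCMS libraries, and above 4 were 2 of each.

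Control Mt1 had a mean of 2.27 ± 2.08 (SD, n = 7) and UCMS Mt1 2.92 ± 1.44 (SD, n = 9), a difference of 0.65 (limma SE 0.73, 95% interval -0.88 to 2.17, adjusted p = 0.738; exact permutation p = 0.467, two-sided). The difference of medians was 2.44, with 7 of 9 UCMS libraries above the control median. The interval runs from 0.543-fold to 4.51-fold, so it includes a several-fold rise. Without control replicate 4 the difference was 0.36, and without control replicate 2 it was 1.09.

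Mt2 in blood was at 1.70, 4.10, 0.63, 0.25, 0.19, 5.21 and 0.72 in control replicates 1 to 7, and at 1.17, 2.78, 4.24, 1.40, 2.67, 0.97, 3.76, 4.49 and 0.65 in UCMS replicates 1 to 9. The control libraries again held both ends, and 8 of 9 UCMS libraries were above the control median. Its mean of 2.18 over all libraries was under the filter level of 2.48 that left out the lowest 10% of genes, so it had no limma value. The difference of means was 0.63 (1.83 ± 2.02 in control, n = 7, and 2.46 ± 1.47 in UCMS, n = 9; exact permutation p = 0.475, two-sided). Without control replicate 6, the highest library, it was 1.19, and without control replicate 5 it was 0.36.

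Most markers of several blood cell types lay on 1 side of the comparison. Red cell precursor genes (Alas2, Slc4a1 and others) were higher in UCMS for 11 of 12 tested, with a summed level of 326545 to 354015 in control and 353356 to 356046 in UCMS, and 10 of 10 platelet genes were lower, at 1936 to 2856 in control and 844 to 2498 in UCMS. Hbb-bs, part of the red cell sum, was at 15.423 in all 9 UCMS libraries and at 14.728 to 15.423 in control. Levels at the top are set by the shared distribution, so the red cell sum does not measure an amount. Of the tested neutrophil, monocyte, T cell and B cell genes, 10 of 10, 8 of 9, 9 of 10 and 7 of 10 were lower, while 48.5% of all genes tested were higher. None passed the adjusted threshold in limma, while 3 of 12 red cell precursor and 7 of 10 platelet genes had an unadjusted p under 0.05, against 10.8% of all genes tested. The part of blood cells in the levels of Mt1 and Mt2 was not tested. With the red cell precursor score in the model, the difference in blood was 0.25 for Mt1 (limma SE 0.87, against 0.73 without the score, adjusted p = 0.999) and 0.06 for Mt2, fitted with no filter on low values. Genes of this score were mostly higher in UCMS, so the model cannot tell the score from the treatment. Across blood libraries the relation with the score did not pass for Mt1 (r = 0.27, permutation test, adjusted p = 0.523) or Mt2 (r = 0.35, adjusted p = 0.386).

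For the genes of similar level in the blood table (within 0.5 on the log2 scale), the SD of Mt1 within treatment, 1.74, was at the 99.9th percentile of 2546 genes, and that of Mt2, 1.73, at the 99.5th of 1544. Within brain regions, Mt1 and Mt2 stood between the 80.8th and the 92.7th percentile of genes of similar level, while Mt3 stood between the 29.3rd and the 53.1st.

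Whether UCMS acted differently between tissues was tested within animals, as the difference between 2 tissues compared between treatments by exact permutation. Of 15 such tests, 0 passed and the smallest adjusted p was 0.836; 0 had an unadjusted p under 0.05. The largest brain contrast was Mt2 in prefrontal cortex against hypothalamus, where the UCMS effect was lower by 0.20 on the log2 scale (exact permutation p = 0.362, n = 8 each).

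Mt1 and Mt2 varied together from library to library. In relations across libraries, 129 were computed in all and adjusted together by Benjamini-Hochberg, and 23 passed by Pearson's r, 17 by Spearman's rho and 15 by both. Mt1 against Mt2 passed by both in each tissue. In prefrontal cortex r was 0.83 and rho 0.77 (permutation p = 3e-05 and 0.00075, adjusted p = 0.00129 and 0.019, n = 16). In hippocampus r was 0.90 and rho 0.73 (permutation p = 9e-05 and 0.00178, adjusted p = 0.0029 and 0.0238), and in hypothalamus r was 0.92 and rho 0.88 (each with permutation p = 1e-05, the smallest that the resamples can give, and adjusted p = 0.000645).

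In blood r was 0.97 and rho 0.94 (permutation p = 1e-05 and adjusted p = 0.000645 for each). Leaving out the 2 libraries farthest from the median of Mt2 gave, from prefrontal cortex through hippocampus and hypothalamus to blood, r of 0.72, 0.66, 0.88 and 0.96, with adjusted p = 0.0845 and 0.135 in the first of these regions and the next. The relation thus no longer passed in prefrontal cortex and hippocampus, where UCMS replicates 5 and 3 were among the libraries left out. Within controls r was 0.82, 0.91, 0.91 and 0.99 in the 4 tissues, and within UCMS 0.89, 0.95, 0.93 and 0.93.

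**Figure D3:**
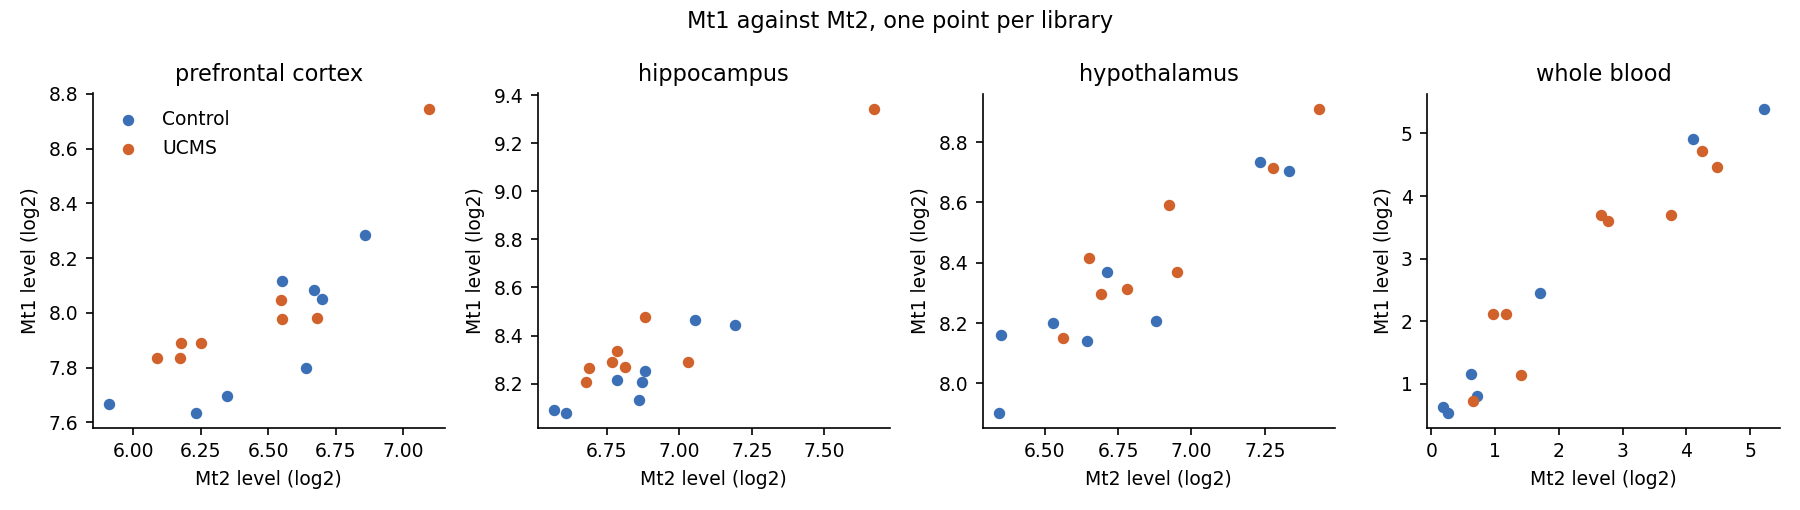
Log2 level of Mt1 (y axis) against Mt2 (x axis) in each tissue, 1 point per library, blue for control and orange for UCMS; axes differ between panels. Points lie along a line in each tissue with r of 0.83, 0.90, 0.92 and 0.97, and in prefrontal cortex and hippocampus 1 UCMS library stands apart at the upper right.

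Mt3 followed the other members in each brain region, less closely. Its r with Mt1 was 0.74, 0.69 and 0.65 in prefrontal cortex, hippocampus and hypothalamus (rho 0.57, 0.51 and 0.69; permutation p for r = 0.00502, 0.00536 and 0.00656, adjusted p = 0.0341, 0.0346 and 0.0385). By rho, Mt1 against Mt3 passed in the hypothalamus only (adjusted p = 0.0358). Its r with Mt2 was 0.72, 0.73 and 0.67 (rho 0.75, 0.54 and 0.64; permutation p for r = 0.00114, 0.00201 and 0.00443, adjusted p = 0.0135, 0.018 and 0.0318). Without the 2 farthest libraries, r of Mt3 with Mt1 was 0.45, 0.47 and 0.53 and with Mt2 0.55, 0.59 and 0.54, and none of these passed.

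The same gene was then compared between tissues of the same animal. Of 15 such relations, 1 passed by r and another by rho. Mt3 in prefrontal cortex and hypothalamus had r of 0.64 (permutation p = 0.00613, adjusted p = 0.0377) and rho of 0.56 (adjusted p = 0.122, n = 16), and r of 0.43 without the 2 farthest libraries. Mt1 in hippocampus and hypothalamus had rho of 0.74 (permutation p = 0.00144, adjusted p = 0.0232) and r of 0.50 (adjusted p = 0.137).

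No relation between blood and brain passed. For Mt1 and Mt2, r between blood and a brain region ran from -0.18 to 0.28 over 15 animals.

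The genes whose levels were most like each member were named by the Pearson r of deviations from the treatment means, taking the lowest r over the 3 brain regions among 13432 genes. For Mt1, Mt2 came first with a lowest r of 0.86. Then came Rpl28-ps1 (0.83), a ribosomal protein pseudogene whose reads may be shared with its parent gene, Gm15710 (0.82) and Phgdh (0.80), the first enzyme of serine synthesis and abundant in astrocytes. Fam102a, Abcg1 (a cholesterol exporter), Zcchc24, Sdc4 (a cell-surface proteoglycan), Slain1 and Micall1 followed, at 0.76 to 0.72. Mt3 was at rank 24.

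For Mt2, Mt1 came first, followed by Gfap (0.73) and Mt3 (0.72). Gfap is the intermediate filament of astrocytes, and its r with Mt2 was 0.73 in each region. Rpl28-ps1, Gm15710, AI849053, Gm2a (the activator protein of ganglioside breakdown), Bola2, Rpl13-ps6 and Fam102a made up the other 7, at 0.71 to 0.67.

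The list of Mt3 had other names. Ndufb7 came first (0.81), then Ddit4 (0.80), an mTOR inhibitor induced by glucocorticoids and hypoxia, and Ndufs8 (0.79). Ndufb7 and Ndufs8 are subunits of mitochondrial complex I, and Cox6a1 (0.74, complex IV) and Sdhc (0.74, complex II) are also parts of the respiratory chain. The share of respiratory chain genes among all 13432 ranked was not counted. Gm3244, Vegfb, Pccb and Dnajc4 completed the list with Mt2, at rank 10 with 0.72, and Mt1 was at rank 29.

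In blood, Mt2 had an r of 0.97 with Mt1 and was not ranked, being under the filter on low values. Among the genes tested, those most like Mt1 were Hmox1 (r = 0.93), Hspa1b (0.90), Ctsk (0.88), Clec4n (0.87) and Lhfpl2 (0.87), over 16 libraries and 7901 genes. Those most like Mt2 were Mt1 (0.97), Hmox1 (0.96), Hspa1b (0.94), Gm6166 (0.93) and Ctsk (0.92). Hmox1 is heme oxygenase, which breaks down heme and is induced by heme, metals and oxidants. Hspa1b is a heat-inducible chaperone with a near-identical neighbour, Hspa1a, which makes its reads uncertain. Ctsk is a lysosomal protease and Clec4n the receptor Dectin-2 of myeloid cells.

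Hmox1 ranged over 19.7-fold between blood libraries, from 1.02 to 5.31, and Hspa1b over 16.9-fold, from 0.47 to 4.55. Neither passed between treatments (limma differences of 0.99 and 0.86, adjusted p = 0.518 and 0.571). Clec4n was also wide, at 41.4-fold, and its difference of 1.54 had an unadjusted limma p of 0.0247 and an adjusted p of 0.458.

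**Figure D4:**
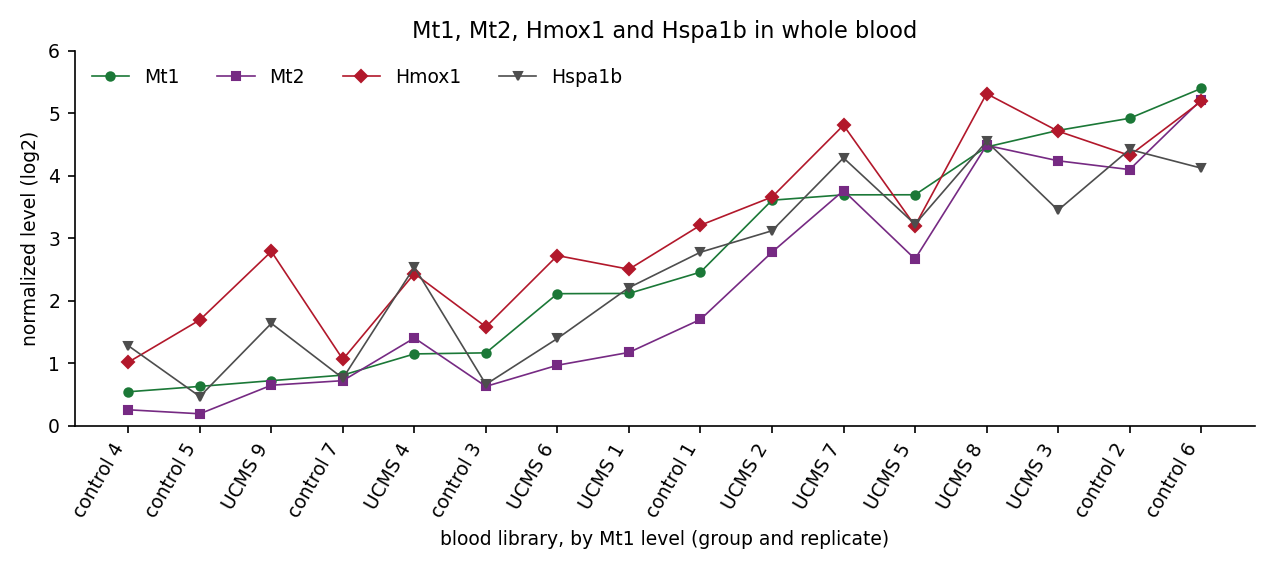
Log2 level (y axis) of Mt1, Mt2, Hmox1 and Hspa1b in the 16 blood libraries, ordered along the x axis by the level of Mt1 and labelled by group and replicate. The 4 genes climb together from about the low end to levels of 4 to 5, and control libraries occupy both ends of the order.

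Scores of cell type markers, the mean z-score over a list in each library, were set against each member. In the hypothalamus all 3 members followed the astrocyte score, with r of 0.76 for Mt1, 0.71 for Mt2 and 0.70 for Mt3 (permutation p = 0.00063, 0.00203 and 0.00273, adjusted p = 0.0116, 0.018 and 0.022; rho 0.67, 0.53 and 0.73). They followed the microglia score there too, with r of 0.68, 0.74 and 0.70 (permutation p = 0.00336, 0.00096 and 0.00209, adjusted p = 0.0255, 0.0135 and 0.018; rho 0.74, 0.77 and 0.69). Without the 2 farthest libraries, r was 0.57, 0.52 and 0.80 with astrocytes and 0.58, 0.70 and 0.56 with microglia, and of these 6 relations 1 still passed, that of Mt3 with astrocytes (adjusted p = 0.0171).

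Mt3 was lower where choroid plexus genes were higher in the hypothalamus, with r of -0.79 and rho of -0.78 (permutation p = 0.00032 and 0.00059, adjusted p = 0.00826 and 0.019), and r of -0.64 without the 2 farthest libraries, which did not pass (adjusted p = 0.146). Of 10 choroid plexus markers 7 were listed there, with a summed level of 96.2 to 359 in control and 92.3 to 276 in UCMS. The astrocyte markers, 15 of 15 listed, summed to 2836 to 3950 in control and 2922 to 3983 in UCMS, and the microglia markers, 10 of 10, to 399.8 to 563 and 393 to 485. The part of cell makeup in the levels of the metallothioneins was not tested.

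In the hippocampus, Mt1 followed the astrocyte score (r = 0.74, permutation p = 0.00081, adjusted p = 0.0131; rho 0.64) and so did Mt3 (r = 0.73, permutation p = 0.00115, adjusted p = 0.0135; rho 0.66). Mt3 also followed microglia (r = 0.78, permutation p = 0.00052, adjusted p = 0.0112; rho 0.76). Without the 2 farthest libraries these were 0.46, 0.65 and 0.63, and none passed. In the prefrontal cortex no score passed by r. Mt1 there passed by rho with oligodendrocyte markers (rho 0.67, permutation p = 0.00608, adjusted p = 0.049; r = 0.56), and its r with the astrocyte score was 0.09.

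In blood Mt2 was lower where T cell genes were higher (r = -0.64, permutation p = 0.00863, adjusted p = 0.0484; rho -0.60, adjusted p = 0.0934), and Mt1 had the same r of -0.64 (adjusted p = 0.0518). All 10 T cell markers were listed in blood, with a summed level of 104 to 185 in control and 108 to 161 in UCMS. Without the 2 farthest libraries r was -0.51 for Mt2 and -0.49 for Mt1, and neither passed. Relations with red cell, platelet, neutrophil, monocyte and B cell scores did not pass.

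**Figure D5:**
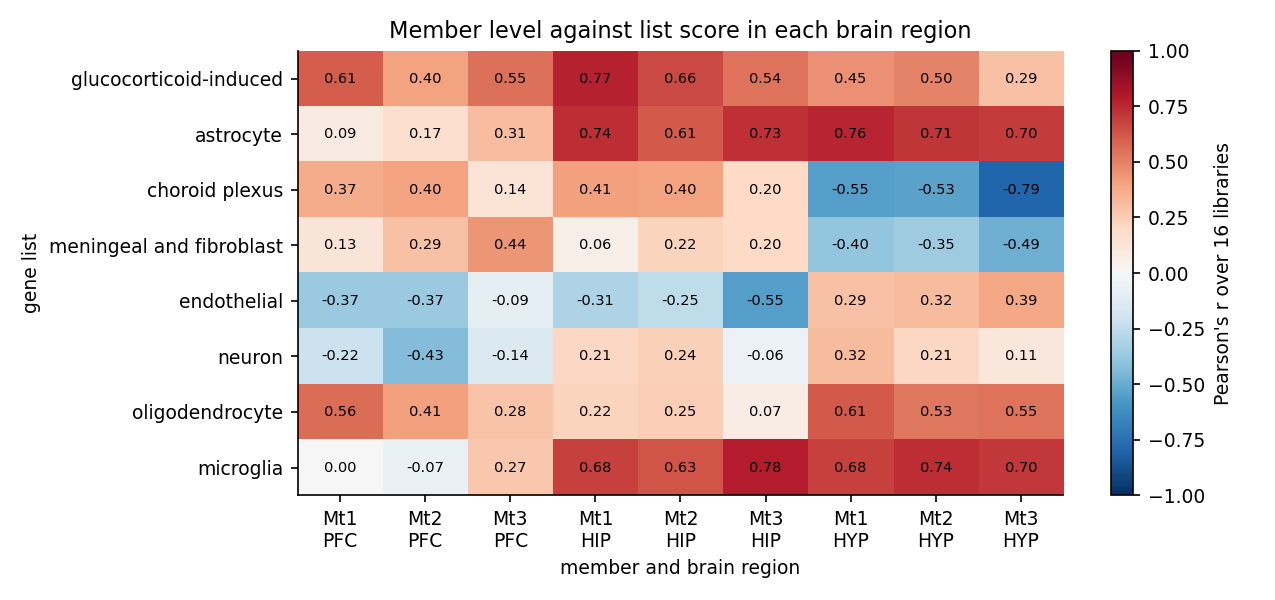
Pearson's r over 16 libraries between each member's level and the score of each gene list (y axis) in each brain region (x axis; PFC prefrontal cortex, HIP hippocampus, HYP hypothalamus), red for positive and blue for negative. Values for astrocyte and microglia lists are at 0.61 or more in hippocampus and hypothalamus and at 0.31 or less in prefrontal cortex. Without the 2 libraries farthest from the median score, hippocampal r with astrocytes was 0.46, 0.27 and 0.65 for Mt1, Mt2 and Mt3. With microglia it was 0.16, 0.01 and 0.63. In prefrontal cortex r was then 0.13, 0.28 and 0.48 with astrocytes and 0.58, 0.39 and 0.47 with microglia. Differences between regions were not tested.

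Genes known to be induced by glucocorticoids were counted because Mt1 and Mt2 are known to share that regulation; the list of 25 (Fkbp5, Tsc22d3, Sgk1, Per1 and others) holds no metallothionein. In limma 0 of its members were called in any tissue. More of them were higher in UCMS than lower in each brain region: 19 of 21 tested in prefrontal cortex with a median difference of 0.10, 20 of 22 in hippocampus with 0.13 and 19 of 22 in hypothalamus with 0.11. Over all genes tested 52.0%, 50.1% and 50.5% were higher, with medians of 0.0056, 0.00038 and 0.00075. In blood 4 of 11 were higher, with a median of -0.06, against 48.5% of all genes.

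In the hippocampus 5 of the 22 had an unadjusted limma p under 0.05, against 2.95% of all genes tested. The same held for 0 of 21 in prefrontal cortex, 2 of 22 in hypothalamus and 1 of 11 in blood. The shares of all genes there were 2.18%, 2.12% and 10.8%. Cebpd, a transcription factor of the acute response, was at 6.16 ± 0.22 in control and 6.47 ± 0.17 in UCMS (n = 8 each, limma adjusted p = 0.990), and Plin4, a lipid droplet protein, at 3.99 ± 0.30 and 4.42 ± 0.45 (limma adjusted p = 0.990). Fkbp5, which dampens glucocorticoid receptor activity, was at 4.27 ± 0.16 and 4.42 ± 0.19 in the hypothalamus (limma adjusted p = 0.99999).

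Across libraries Mt1 followed the score of this list in the hippocampus (r = 0.77, permutation p = 0.00158, adjusted p = 0.017; rho 0.72, adjusted p = 0.0246). It was 0.54 without the 2 farthest libraries, UCMS replicates 3 and 5, and then did not pass. For Mt2 there r was 0.66 (adjusted p = 0.0523). In prefrontal cortex r of Mt1 with the score was 0.61 (adjusted p = 0.0933) and rho was 0.10, in hypothalamus r was 0.45 and in blood 0.22. None of these 3 passed.

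Of 25 genes of zinc transport and sensing, limma tested 20, 21 and 19 in the prefrontal cortex, the hippocampus and the hypothalamus, tested 14 in blood, and called 0 in each. Higher in UCMS were 11, 10, 8 and 4 of them in that order, with medians of 0.01, -0.01, -0.01 and -0.08. Mtf1, the zinc sensor that activates Mt1 and Mt2, was at 4.36 ± 0.11 in control and 4.45 ± 0.06 in UCMS in the hippocampus, and 8 of 8 UCMS libraries were above the control median (n = 8 each, limma adjusted p = 0.990; exact permutation p = 0.0581, two-sided). The Mtf1 difference was not tested between tissues. It was -0.05 in prefrontal cortex, -0.01 in hypothalamus and 0.23 in blood (exact permutation p = 0.374, 0.891 and 0.283). There 3 of 8, 5 of 8 and 5 of 9 UCMS libraries were above the control median of the tissue. In the hippocampus the zinc transporters with the smallest p were Slc30a7, at 3.84 ± 0.12 and 3.73 ± 0.06, and Slc39a14, at 4.28 ± 0.14 and 4.39 ± 0.11, in control and UCMS.

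Of 15 genes of copper handling, 13, 13, 14 and 10 were tested, 0 were called, and 4, 4, 6 and 5 were higher in UCMS, with medians of -0.01, -0.09, -0.01 and -0.03. Cox17, a copper chaperone of mitochondria, was at 5.24 ± 0.15 in control and 5.08 ± 0.11 in UCMS in the hippocampus (n = 8 each, limma unadjusted p = 0.0219, adjusted p = 0.990). Steap3, a metal reductase of red cell precursors, was at 2.69 ± 0.35 in control (n = 7) and 3.24 ± 0.50 in UCMS (n = 9) in blood (limma unadjusted p = 0.0189, adjusted p = 0.452).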

How the data were processed

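For each tissue the authors deposited 1 table of genes by Entrez number and symbol. The deposited values were read as log2 levels, quantile normalized between the libraries of a table; both were inferred from the values. Per the labels' protocols, ribosomal RNA was depleted and strand-specific libraries were built from 100 ng of total RNA. Per the submitters' processing notes, the genome build is GRCm38.p4. The aligner and counter are not stated in the sources used here. Counts could not be recovered, and 0 value columns lacked a sample.

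Groups and animals were taken from the labels, and each library of a group is a separate animal. limma 3.58.1 (R 4.3.3) was fitted per tissue, two-sided, with a trended prior variance, leaving out the 10% of genes with the lowest mean, and was tested on simulated data. Benjamini-Hochberg adjustment covered all genes tested. Permutation tests of differences were exact; those of correlations were exact below 10 values and otherwise used 100000 resamples, in Python 3.11.15.

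The members, lists and tests were chosen with earlier results of these data known. Genes named were the family, Hbb-bs, the 4 members of a list with the smallest p in a tissue, of which a selection is given, the 5 genes most like a member in a tissue, given for blood, and the 10 over the brain regions. Alternatives tried were other filters, prior variances, covariates, a replicate block, and leaving out libraries or animals.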

Additional observations from a re-analysis of the deposited data

Results flagged for a closer look

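In 3 of 22 groups of libraries examined, the highest library stood farther from the next than Dixon's 95% limit allows for a group of its size; both ends of each group were examined, and chance alone marks about 1 group in 20. Mt1 in the prefrontal cortex was at 8.746 in UCMS replicate 5, with the next UCMS library at 8.05. That library was also the highest of 16 in the score of glucocorticoid-induced genes (1.12, next 0.80) and of meningeal genes (1.01, next 0.96), and ninth in astrocyte genes. The meningeal score there rested on 4 of 10 genes.

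Mt1 in the hippocampus was at 9.344 in UCMS replicate 3, with the next UCMS library at 8.48, and Mt2 in the same library was at 7.671, with the next at 7.03. That library had the highest score of 16 for glucocorticoid-induced genes (1.38, next 0.74), astrocyte genes (1.01, next 0.56), microglia genes (1.45, next 0.69), ependymal genes (1.79, next 1.14) and choroid plexus genes (1.71, next 1.69). The ependymal score there rested on 2 of 7 genes and the choroid plexus score on 5 of 10. The part of these markers in the metallothionein levels of that library was not tested.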

How the results depend on the processing

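Without the BS-numbered animals the difference between UCMS and control in prefrontal cortex was 0.0080 for Mt2 and 0.0086 for Mt3. With the astrocyte score as a covariate it was 0.011 for Mt3 in prefrontal cortex, -0.035 for Mt2 and -0.019 for Mt3 in hippocampus (hippocampal Mt1 kept its sign, at 0.081), and the difference of medians of hippocampal Mt2 was -0.0685. The Mt2 and Mt3 values named reversed in sign, with no call on either side. Leaving out 1 library at a time gave -0.14 to 0.0100 for Mt2 and -0.067 to 0.0305 for Mt3 in prefrontal cortex, and -0.047 to 0.11 for Mt2 and -0.0029 to 0.063 for Mt3 in hippocampus. The count of called genes in blood went from 0 to 1, the latter without UCMS replicate 2. In blood Mt1 fell below the filter on low values without control replicate 6 and with 25% of genes left out, so it has no limma value there, and Mt2 had limma values only with no filter.

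Leaving out 1 animal at a time, the UCMS effect in prefrontal cortex minus that in hippocampus ran from -0.21 to 0.0465 for Mt1 and from -0.0926 to 0.00080 for Mt3, and prefrontal cortex minus hypothalamus from -0.13 to 0.0512 for Mt1 and from -0.0116 to 0.057 for Mt3. Hippocampus minus hypothalamus ran from -0.081 to 0.0909 for Mt1. Against blood, hippocampus ran from -0.80 to 0.0687 and hypothalamus from -0.84 to 0.0575 for Mt1, and hypothalamus from -0.80 to 0.0863 for Mt2. None of the 15 passed in any of these.

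Of the 129 relations, 23 passed by Pearson's r; 0 passed within controls, 6 within UCMS, 4 without the 2 libraries farthest from the median, and 10 of 114 without the hemoglobin-rich libraries, each from fewer libraries. Among the 10 of 114 was Mt3 with Hbb-bs in prefrontal cortex, at r of 0.72 over 14 libraries (permutation test, adjusted p = 0.0416). Over all 16 libraries that r was 0.39 (adjusted p = 0.306). In hippocampus and hypothalamus r of Mt3 with Hbb-bs was 0.46 and 0.45 without the hemoglobin-rich libraries, and neither passed. Mt1 and Mt2 did not pass with Hbb-bs. With Spearman's rho 3, 5 and 2 of the 10 genes most like Mt1, Mt2 and Mt3 remained, and without the hemoglobin-rich libraries 6, 4 and 4.

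Replicate numbers were shared between control and UCMS but name different animals. Same-numbered libraries had correlations of -0.45 to 0.55, over 0.1 in 6 of 8, 3 of 8, 3 of 8 and 2 of 7 pairs, and 5, 1 and 0 of 16 and 2 of 14 libraries correlated best with their own number. With the replicate block, 0 genes were called in each tissue, and the difference was 0.11, 0.20, 0.17 and 0.74 for Mt1 in prefrontal cortex, hippocampus, hypothalamus and blood (limma adjusted p = 0.938, 0.996, 0.99999 and 0.681).

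Depth is unknown, so no counting error is given for any level.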

Other observations

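Mt4, the fourth gene of the cluster and known from stratified epithelia, was listed in the brain tables and not in blood. Its level was 3.39 ± 0.91 in prefrontal cortex, 3.36 ± 0.78 in hippocampus and, for the hypothalamus, 3.45 ± 0.85 (SD, n = 16 each), with a range of 6.01-fold to 11.99-fold between libraries. In the hypothalamus it was at 3.81 ± 0.61 in control and 3.08 ± 0.94 in UCMS, a difference of -0.73 with 1 of 8 UCMS libraries above the control median (exact permutation p = 0.0858, two-sided; limma adjusted p = 0.99999).

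The difference between the Mt1 and Mt2 log2 levels of a library averaged 1.43 ± 0.17 in control and 1.58 ± 0.15 in UCMS in prefrontal cortex, 1.38 ± 0.09 and 1.52 ± 0.12 in hippocampus, and 1.55 ± 0.16 and 1.56 ± 0.12 in hypothalamus (SD, n = 8 each). It was not tested between treatments. In blood it was 0.45 ± 0.43 over 16 libraries.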
